A study of Mus musculus with 11 samples.

Results

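The genes of MHC class II presentation were followed in 11 mouse mammary tumors by bulk RNA sequencing. The set was chosen by gene name and had 8 members, all found among the 26283 genes of the deposited tables: the class II chains *H2-Aa*, *H2-Ab1* and *H2-Eb1*, the invariant chain *Cd74*, the DM chains *H2-DMa* and *H2-DMb1*, the protease *Ctss* and the transactivator *Ciita*. All 8 passed the filter on low counts.

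The tumors came from C57BL/6 mice at 18 weeks of age. All animals carried the MMTV-PyMT transgene, which encodes the polyomavirus middle T oncogene, together with MMTV-Cre. In 6 tumors, called PyMT *Pcbp1*–/–, the *Pcbp1* alleles were floxed (fl/fl), and in 5 control tumors, called PyMT *Pcbp1*+/+, they were not (wt/wt). The MMTV promoter drives Cre in mammary epithelium, and the paper describes the knockout as selective for those cells. Whether leukocytes and stromal cells of a PyMT *Pcbp1*–/– tumor keep the gene was not tested. The labels do not state that the tumors came from separate mice, and p-values therefore measure the spread between tumors.

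Class II molecules are dimers of an alpha and a beta chain that carry peptides from endocytosed proteins to the cell surface, where CD4 T cells read them. The invariant chain, encoded by *Cd74*, occupies the groove during transport, cathepsin S trims it, and the DM dimer exchanges the remaining fragment for peptide. Dendritic cells, B cells and macrophages express the pathway through the transactivator CIITA, which interferon gamma can also switch on in epithelial cells.

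The deposited estimated counts summed to between 10543200 and 14092200 per tumor. Expression was read in deposited CPM, in which the counts of every tumor are scaled to the same total. *Pcbp1* served as the check of the labels. It had between 15.4 and 33.6 CPM, with a median of 20.9 CPM, in PyMT *Pcbp1*–/– tumors, and 268, 271, 225, 220 and 259 CPM in the controls, PyMT *Pcbp1*+/+ replicates 1 to 5. The groups did not overlap, and no tumor went against its label.

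No class II gene passed the test between the genotypes. In edgeR's quasi-likelihood test with Benjamini-Hochberg adjustment over 19232 genes, 0 of the 8 members fell and 0 rose with loss of *Pcbp1* at an adjusted p under 0.05, against 1.66% of all genes tested that were lower and 0.608% that were higher. At an unadjusted p under 0.05 the count was also 0 of 8, where 18.7% of all genes tested passed in either direction. DESeq2 called 0 members, and limma-voom with sample quality weights called 1, *H2-Eb1*, as lower. Of all 19232 genes, that limma-voom fit called 1190 lower and 968 higher. No member was lower without overlap of the groups in CPM, which held for 2.02% of the genes tested. The median log2 fold change was -0.37 over the 8 members, 7 of them negative, and 0.00 over all genes tested. In bulk tumors, fewer cells of a type and less RNA per cell cannot be told apart.

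Among the chains that form the peptide-binding dimers, *H2-Ab1* encodes the beta chain of I-A (ENSMUSG00000073421.5, GRCm38 chromosome 17, 34263209 to 34269418, plus strand). It had between 21.6 and 60.6 CPM, with a median of 48.0 CPM, in PyMT *Pcbp1*–/– tumors, and 79.2, 45.2, 93.9, 71.4 and 30.8 CPM in the controls, PyMT *Pcbp1*+/+ replicates 1 to 5. PyMT *Pcbp1*+/+ replicates 1, 3 and 4 lay above every PyMT *Pcbp1*–/– tumor, whereas replicates 2 and 5 lay inside their range. For *H2-Ab1*, edgeR estimated -0.57 as log2 fold change (standard error, SE, 0.32, 95% confidence interval, CI, -1.27 to 0.13, adjusted p = 0.364).

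*H2-Aa* encodes the alpha chain that pairs with it (ENSMUSG00000036594.14, chromosome 17, 34282744 to 34287827, minus strand). It had between 18 and 51.4 CPM, with a median of 36.8 CPM, in PyMT *Pcbp1*–/– tumors, and 61.6, 32.2, 69.8, 64.4 and 21.8 CPM in the controls, PyMT *Pcbp1*+/+ replicates 1 to 5. The same 3 control tumors stood above the PyMT *Pcbp1*–/– range, and the groups overlapped in the other 2. For *H2-Aa*, edgeR estimated -0.52 as log2 fold change (SE 0.33, 95% CI -1.24 to 0.19, adjusted p = 0.422).

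*H2-Eb1* encodes the beta chain of I-E (ENSMUSG00000060586.10, chromosome 17, 34305877 to 34316199, plus strand). It had between 23.4 and 65.7 CPM, with a median of 45.1 CPM, in PyMT *Pcbp1*–/– tumors, and 76.1, 40.8, 109, 76.9 and 34.3 CPM in the controls, PyMT *Pcbp1*+/+ replicates 1 to 5. PyMT *Pcbp1*+/+ replicates 1, 3 and 4 again lay above every PyMT *Pcbp1*–/– tumor, and the groups overlapped in replicates 2 and 5. *H2-Ea*, the gene for the alpha chain of I-E, was not analysed here, and whether an I-E dimer forms in these tumors was not tested. For *H2-Eb1*, edgeR estimated -0.61 as log2 fold change (SE 0.33, 95% CI -1.32 to 0.10, adjusted p = 0.341). With sample quality weights, limma-voom gave -1.03 (adjusted p = 0.0411), against adjusted p-values of 0.0518, 0.0574 and 0.0597 for *H2-Ab1*, *Cd74* and *H2-Aa*. Over all alternatives the adjusted p of *H2-Eb1* ran from 0.0411 to 0.655, and only this fit called it. That fit gave PyMT *Pcbp1*+/+ replicates 2 and 5 weights of 0.348 and 0.636, and replicates 3 and 4 weights of 1.78 and 1.71. Among PyMT *Pcbp1*–/– tumors, replicates 3 and 4 had the largest weights, 2.15 and 2.28, and replicate 2, the highest of them in *H2-Eb1*, the lowest, 0.51.

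*Cd74* encodes the invariant chain, the chaperone of new class II dimers (ENSMUSG00000024610.14). It had between 46.5 and 134 CPM, with a median of 88.2 CPM, in PyMT *Pcbp1*–/– tumors, and 186, 89.4, 181, 147 and 58.5 CPM in the controls, PyMT *Pcbp1*+/+ replicates 1 to 5. The order of tumors resembled that of the chains, with PyMT *Pcbp1*+/+ replicates 1, 3 and 4 highest and PyMT *Pcbp1*–/– replicate 5 lowest. For *Cd74*, edgeR estimated -0.52 as log2 fold change (SE 0.32, 95% CI -1.22 to 0.18, adjusted p = 0.416).

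Leaving out single tumors moved the log2 fold changes of these 4 genes, most of all PyMT *Pcbp1*+/+ replicates 5 and 3, but others too. Without PyMT *Pcbp1*+/+ replicate 5, the log2 fold changes were -0.74 for *H2-Ab1*, -0.70 for *H2-Aa*, -0.77 for *H2-Eb1* and -0.70 for *Cd74*. Without PyMT *Pcbp1*+/+ replicate 3, they were -0.34, -0.32, -0.31 and -0.33, and without PyMT *Pcbp1*–/– replicate 5 they were -0.44, -0.39, -0.48 and -0.38. None of the 4 was called with any tumor left out, and the lowest adjusted p was 0.208, for *H2-Ab1* (edgeR).

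**Figure D1:**
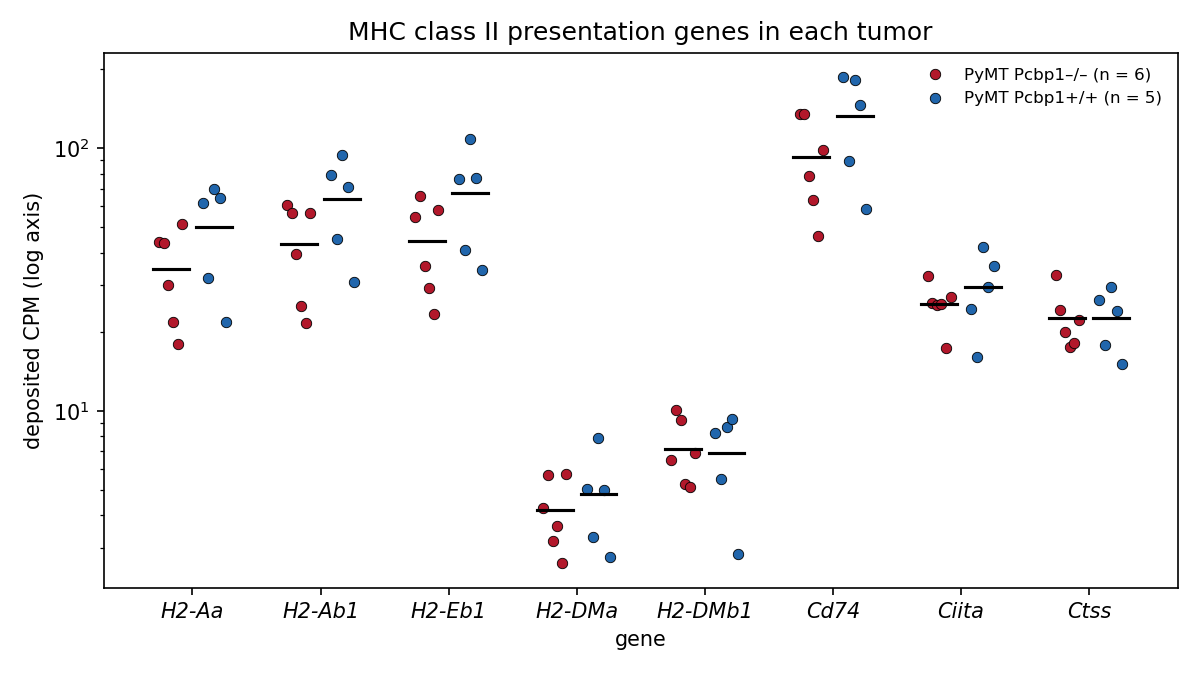
Deposited CPM of the 8 class II presentation genes on a log axis, with 1 point per tumor (6 PyMT *Pcbp1*–/– and 5 PyMT *Pcbp1*+/+) and a bar at the group mean. The groups overlap for every gene, and *Cd74* spans 46.5 to 186 CPM.

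The DM dimer loads peptide in late endosomes. *H2-DMa*, its alpha chain (ENSMUSG00000037649.9, chromosome 17, 34135182 to 34139101, plus strand), had between 2.63 and 5.72 CPM, with a median of 3.96 CPM, in PyMT *Pcbp1*–/– tumors, and 5.02, 3.32, 7.89, 5.01 and 2.77 CPM in the controls, PyMT *Pcbp1*+/+ replicates 1 to 5. PyMT *Pcbp1*+/+ replicate 3 was the highest tumor and PyMT *Pcbp1*–/– replicate 5 the lowest. For *H2-DMa*, edgeR estimated -0.21 as log2 fold change (SE 0.29, 95% CI -0.84 to 0.43, adjusted p = 0.742), and it was 0.10 without PyMT *Pcbp1*+/+ replicate 3.

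*H2-DMb1* encodes a DM beta chain (ENSMUSG00000079547.3, chromosome 17, 34153072 to 34160230, plus strand). It had between 5.11 and 10.0 CPM, with a median of 6.69 CPM, in PyMT *Pcbp1*–/– tumors, and 8.22, 5.5, 8.67, 9.29 and 2.86 CPM in the controls, PyMT *Pcbp1*+/+ replicates 1 to 5. The highest tumor was a PyMT *Pcbp1*–/– tumor, replicate 2, and the lowest was PyMT *Pcbp1*+/+ replicate 5. For *H2-DMb1*, edgeR estimated 0.06 as log2 fold change (SE 0.27, 95% CI -0.54 to 0.65, adjusted p = 0.934), and its sign turned with limma-voom and with any of 4 tumors left out. *H2-DMb2*, a close copy of the gene, had at most 1.14 CPM, and how reads common to both copies were counted was not tested.

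*Ctss* encodes cathepsin S, which trims the invariant chain (ENSMUSG00000038642.10, chromosome 3, 95526786 to 95556403, plus strand). It had between 17.5 and 33.0 CPM, with a median of 21.0 CPM, in PyMT *Pcbp1*–/– tumors, and 26.4, 17.8, 29.6, 24.0 and 15.1 CPM in the controls, PyMT *Pcbp1*+/+ replicates 1 to 5. Tumors of either genotype stood at the top and at the bottom of this range. For *Ctss*, edgeR estimated -0.01 as log2 fold change (SE 0.20, 95% CI -0.44 to 0.42, adjusted p = 0.981), and its sign turned under 3 other settings and with any of 5 tumors left out. The pseudogene *Hmgb1-ps5* lies within *Ctss* and had a mean of 0.559 CPM.

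*Ciita* encodes the transactivator of the class II genes (ENSMUSG00000022504.10, chromosome 16, 10480059 to 10528418, plus strand). It had between 17.4 and 32.5 CPM, with a median of 25.6 CPM, in PyMT *Pcbp1*–/– tumors, and 24.5, 16.0, 41.9, 29.7 and 35.6 CPM in the controls, PyMT *Pcbp1*+/+ replicates 1 to 5. PyMT *Pcbp1*+/+ replicate 5, low in the chains, was the second highest tumor in *Ciita*. For *Ciita*, edgeR estimated -0.23 as log2 fold change (SE 0.24, 95% CI -0.74 to 0.28, adjusted p = 0.635). Leaving out single tumors gave values from -0.39 to -0.03.

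The *Ciita* value is uncertain, because 25888 bases of the gene overlap *Dexi* on the other strand (10502531 to 10543054) and the sources used here do not say whether counting used strand. *Dexi* had between 20.02 and 26.3 CPM, with a median of 25.7 CPM, in PyMT *Pcbp1*–/– tumors, and 24.2, 22.4, 26.5, 24.0 and 35.5 CPM in the controls, PyMT *Pcbp1*+/+ replicates 1 to 5. PyMT *Pcbp1*+/+ replicate 5 was the highest tumor in *Dexi* and the second highest in *Ciita*. Replicate 3, the highest in *Ciita*, was the second highest in *Dexi*. Its 26.5 CPM lay close to the 26.3 CPM of the highest PyMT *Pcbp1*–/– tumor. Within genotypes r was 0.419, rank 1562 of 13531 genes, and *Ciita* over *Dexi* differed by -0.05 on the log2 scale (p = 0.827, exact permutation test). The part of *Dexi* reads in the *Ciita* value was not tested.

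Per kilobase of the canonical transcript, *Cd74* was the most abundant member, at 64.6 ± 25.6 CPM per kb (SD, n = 6) with loss of *Pcbp1* and 92.5 ± 39.5 CPM per kb (SD, n = 5) in the controls. The chains followed, with 35.7 ± 14.1 CPM per kb (SD, n = 6) for *H2-Ab1*, 30.9 ± 12.0 for *H2-Aa* and 26.2 ± 10.2 for *H2-Eb1* in PyMT *Pcbp1*–/– tumors. These 3 levels differed by less than their spread between tumors. *Ctss* came next, at 16.4 ± 4.18 CPM per kb (SD, n = 6). *H2-DMb1*, *H2-DMa* and *Ciita* had 5.11 ± 1.46, 3.65 ± 1.12 and 3.42 ± 0.646 CPM per kb (SD, n = 6), and *H2-DMa* and *Ciita* differed by less than their spread.

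The chains and the invariant chain varied together from tumor to tumor. After the mean of each genotype was removed from log2(CPM + 0.5), Pearson's r over the 11 tumors lay between 0.947 and 0.980 for the 6 pairs among *H2-Aa*, *H2-Ab1*, *H2-Eb1* and *Cd74*. The ratio of *Cd74* to *H2-Ab1* had a coefficient of variation of 11.4% over the tumors, and the ratios of *H2-Eb1* and *H2-Aa* to *H2-Ab1* had 10.5% and 9.49%, whereas *H2-Ab1* itself differed 4.34-fold between the highest and the lowest tumor. *Ciita* was less alike. Its r with the other 7 members lay between 0.108 and 0.523.

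For *H2-Ab1*, 7 relations of this kind were computed, chosen after the data were seen. *H2-Eb1* had r = 0.969 (p = 0.000127) and Spearman's rho = 0.955 (p = 0.000301, exact permutation within genotypes), and r = 0.945 without the 2 tumors farthest from its median. *Ciita* had r = 0.430 (p = 0.219) and rho = 0.527 (p = 0.128, exact permutation within genotypes). Without PyMT *Pcbp1*–/– replicate 5 and PyMT *Pcbp1*+/+ replicate 2, the r of *Ciita* was 0.0705, so that it rested on those tumors, and within the 6 PyMT *Pcbp1*–/– tumors alone it was 0.783.

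**Figure D2:**
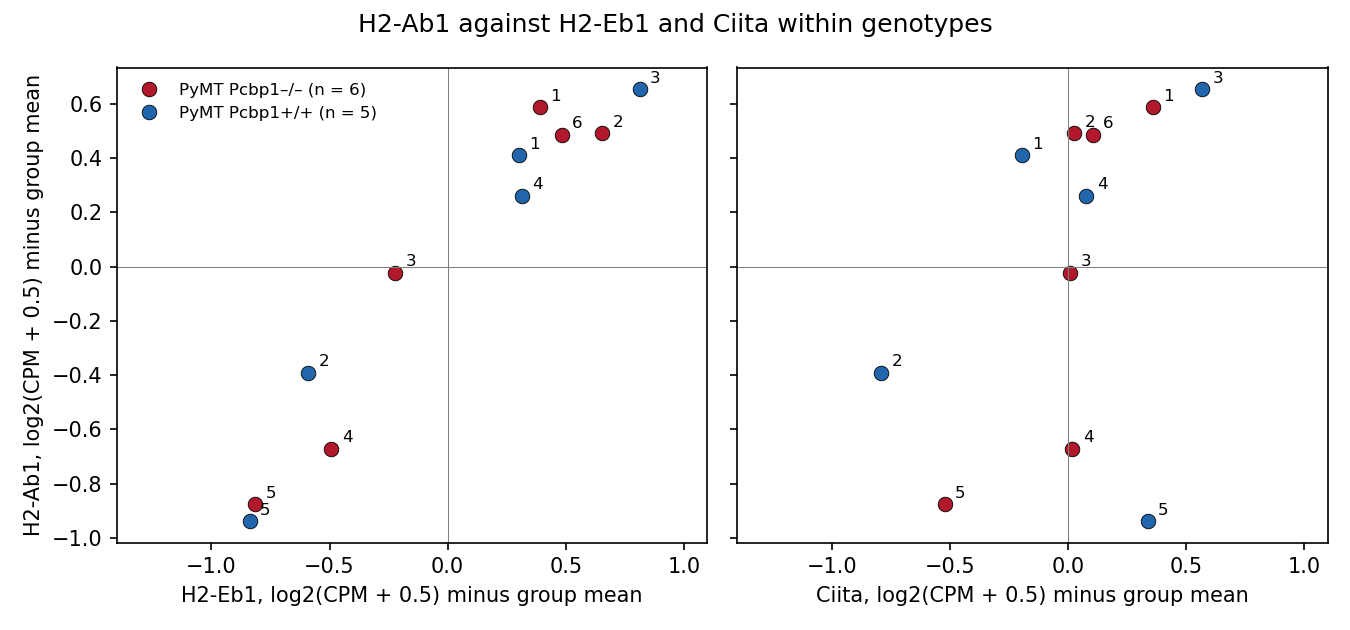
*H2-Ab1* against *H2-Eb1* (left) and *Ciita* (right) in 11 tumors, each axis in log2(CPM + 0.5) minus the genotype mean, with replicate numbers beside the points. *H2-Eb1* follows *H2-Ab1* (r = 0.969), and PyMT *Pcbp1*+/+ replicate 5 lies low in *H2-Ab1* and above its group mean in *Ciita*.

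Likeness to *H2-Ab1* was ranked over all genes. Of 13524 protein-coding genes with a mean of at least 1 CPM, members left out, the 10 with the highest r over the 11 tumors were *Il10ra*, *Inpp5d*, *Cyth4*, *Il16*, *Csf1r*, *Cd86*, *Tlr9*, *Zeb2*, *Hcls1* and *Arhgap45*, with r from 0.957 to 0.986. *Csf1r*, the receptor for the macrophage growth factor CSF1, had r = 0.967, and none of the 10 was called between the genotypes. The 10 genes most like *Ciita* were *Phyh*, *Lzts1*, *Prkcb*, *Syn2*, *Zfp951*, *Crat*, *Rasal3*, *AC131992.1*, *Pomp* and *Gxylt2*, with r from 0.855 to 0.941, and *Zfp951* among them was called lower (edgeR adjusted p = 0.00974). The lists are descriptions and were not tested.

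Relative to *Csf1r* and to *Ptprc*, *H2-Ab1* was lower in PyMT *Pcbp1*–/– tumors. The ratio of *H2-Ab1* to *Csf1r* lay between 0.947 and 1.42 in PyMT *Pcbp1*–/– tumors, and was 2.38, 2.31, 2.51, 2.00 and 1.64 in PyMT *Pcbp1*+/+ replicates 1 to 5. The groups did not overlap, and all 6 PyMT *Pcbp1*–/– tumors lay below the lowest control. The log2 ratio differed by -0.81, so that the ratio was 0.569 times that of the controls (p = 0.00216 by two-sided exact permutation, which is the smallest that 6 against 5 tumors can give, and 0.0108 after adjustment over 5 ratios). With each tumor left out in turn it stayed between -0.91 and -0.74. *Csf1r* itself had between 22.9 and 45.2 CPM in PyMT *Pcbp1*–/– tumors and between 18.8 and 37.4 CPM in PyMT *Pcbp1*+/+ tumors, and edgeR put its log2 fold change at 0.23 (95% CI -0.26 to 0.72, adjusted p = 0.614).

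The ratio of *H2-Ab1* to *Ptprc*, which encodes the leukocyte antigen CD45, lay between 0.886 and 1.59 in PyMT *Pcbp1*–/– tumors, and was 1.91, 1.95, 1.52, 1.70 and 1.61 in PyMT *Pcbp1*+/+ replicates 1 to 5. Of the 6 PyMT *Pcbp1*–/– tumors 5 lay below the lowest control, and replicate 2 lay within the control range. The log2 ratio differed by -0.54 (p = 0.00866 by two-sided exact permutation, and 0.0216 after adjustment over 5 ratios). Without PyMT *Pcbp1*+/+ replicate 1 or replicate 2 it was -0.50 or -0.49 with an adjusted p of 0.0595 (exact permutation test), no longer past the threshold.

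Other leukocyte measures were set under *H2-Ab1* after the data were seen, 8 in all. The log2 difference was -1.68 over *Lyz2*, -1.01 over *Itgam*, -0.86 over *Adgre1*, -0.77 over *C1qa* and -0.53 over the summed pan-leukocyte list (adjusted p = 0.0173 each over the 8, two-sided exact permutation test). It was -0.88 over *Cd68*, -0.67 over the summed macrophage list and -0.44 over the summed dendritic cell list, each with an adjusted p of 0.0519 (exact permutation test). *Itgam* was picked after its own values were seen and is no support for the ratio. Without it, the adjusted p over 7 denominators was 0.0152 for *Lyz2* and *Adgre1* and 0.0189 for *C1qa* and the pan-leukocyte list (exact permutation test). With every tested gene of the macrophage, dendritic cell and pan-leukocyte lists as the denominator in turn, 23 in all, the log2 difference passed for 8, all negative (adjusted p under 0.05 over the 23, exact permutation test). Those were 7 of 12 macrophage genes, 0 of 7 dendritic cell genes and 1 of 4 pan-leukocyte genes. It was positive over *Cd14*, at 0.50 (adjusted p = 0.429, exact permutation test), and over *Clec9a*, at 0.22 (adjusted p = 0.477). *H2-Ab1* alone differed by -0.56, so that the sign tells little: over 13524 protein-coding genes with a mean of at least 1 CPM as denominators, the difference was negative for 95.5%, and for 91.3% of the 23. It was negative with an unadjusted p under 0.05 for 8.18% of those genes, against 12 of the 23 (exact permutation test), and reached the smallest p, as over *Csf1r*, for 0.488%. The difference thus depended on the denominator. For *Lyz2* itself edgeR gave 1.02 as log2 fold change (adjusted p = 0.0657).

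Other members over *Csf1r* and *Ptprc* were not tested. The share of all genes that lie below the lowest control over these denominators was not computed. The counts that follow are therefore descriptions. *H2-Eb1* over *Csf1r* lay below the lowest control in 6 of 6 PyMT *Pcbp1*–/– tumors, *H2-Aa* and *Cd74* in 5 of 6, *H2-DMa*, *Ctss* and *Ciita* in 3 of 6, and *H2-DMb1* in 1 of 6. Over *Ptprc*, *H2-Eb1* lay below the lowest control in 5 of 6, *H2-Aa* and *Cd74* in 4 of 6, and *H2-DMa* in 2 of 6. *Ctss*, *Ciita* and *H2-DMb1* did so in 0 of 6.

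**Figure D3:**
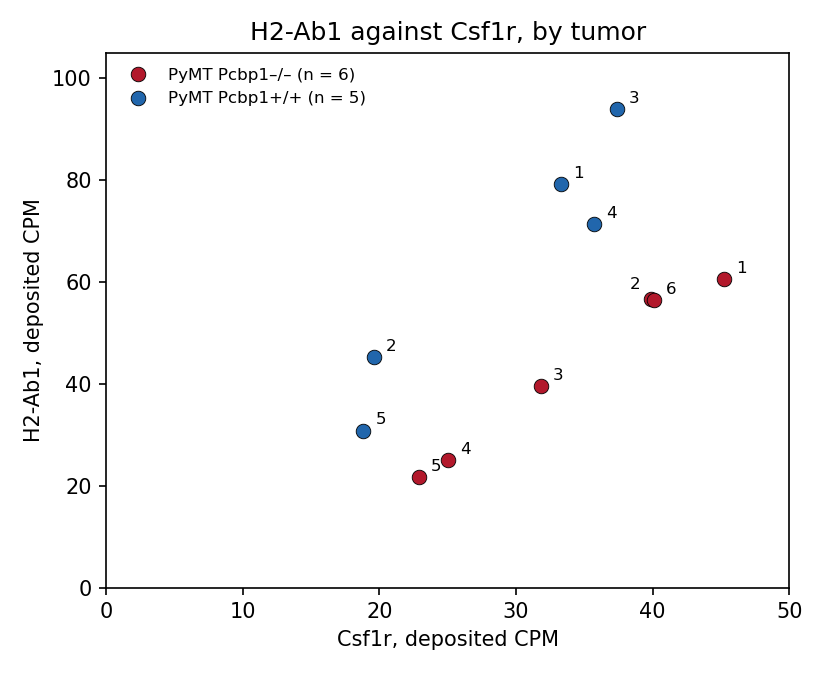
*H2-Ab1* against *Csf1r* in deposited CPM, with 1 point per tumor and its replicate number. PyMT *Pcbp1*+/+ tumors lie above PyMT *Pcbp1*–/– tumors of a similar *Csf1r* level, with ratios from 1.64 to 2.51 against 0.947 to 1.42.

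The other ratios did not pass the test. *Cd74* over *H2-Ab1* lay between 1.74 and 2.54 in PyMT *Pcbp1*–/– tumors and between 1.90 and 2.35 in the controls, a log2 difference of 0.08 (p = 0.459, adjusted p = 0.574, two-sided exact permutation test). *H2-Ab1* over *B2m*, the light chain of class I, lay between 0.237 and 0.648 in PyMT *Pcbp1*–/– tumors and between 0.252 and 0.357 in the controls, a log2 difference of 0.34 (p = 0.229, adjusted p = 0.382, two-sided exact permutation test), and between 0.18 and 0.47 with each tumor left out. *Ciita* over *Nlrc5*, the class I transactivator, lay between 0.537 and 2.01 in PyMT *Pcbp1*–/– tumors and between 0.584 and 2.33 in the controls, a log2 difference of 0.23 (p = 0.587, adjusted p = 0.587, two-sided exact permutation test), and between 0.04 and 0.57 with each tumor left out.

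Marker lists of cells that can carry class II were set beside *H2-Ab1* in each tumor. Of 12 macrophage genes, all in the table and tested, 1 was called lower, *Cd14*, and 0 higher. Over all genes tested, 1.66% were called lower. Of the 12, 10 had a positive and 2 a negative log2 fold change, with a median of 0.19, and the most abundant was *Lyz2* in PyMT *Pcbp1*–/– tumors and *Cd14* in PyMT *Pcbp1*+/+ tumors. Their summed CPM was 678, 507, 557, 422, 443 and 554 in PyMT *Pcbp1*–/– replicates 1 to 6 and 685, 507, 542, 435 and 325 in PyMT *Pcbp1*+/+ replicates 1 to 5. Of 10 dendritic cell genes, 7 were tested and 0 were called by edgeR, 1 of them with an unadjusted p under 0.05 (against 18.7% of all genes tested). This was *Clec9a*, with a mean of 0.659 CPM in PyMT *Pcbp1*–/– and 1.68 CPM in PyMT *Pcbp1*+/+ tumors and -1.36 as log2 fold change (edgeR adjusted p = 0.105). *Zbtb46* was the most abundant. Their summed CPM was 29.0, 30.4, 18.4, 19.5, 14.1 and 34.8 in PyMT *Pcbp1*–/– replicates 1 to 6 and 25.9, 18.5, 35.3, 30.5 and 19.7 in PyMT *Pcbp1*+/+ replicates 1 to 5.

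Lymphocyte markers were low. Of 7 B cell genes 4 were analysed here and 0 passed the filter on low counts, and their sum was at most 4.23 CPM in any tumor. The 8 T cell genes summed to at most 10.8 CPM, with *Cd8a* the most abundant, and 0 of the 4 tested were called by edgeR or had an unadjusted p under 0.05. *Cd3d* was at 0 in 2 of the PyMT *Pcbp1*–/– and 3 of the PyMT *Pcbp1*+/+ tumors. The 4 pan-leukocyte genes summed to between 48.3 and 104 CPM in PyMT *Pcbp1*–/– tumors and between 45.3 and 112 CPM in PyMT *Pcbp1*+/+ tumors. The 8 luminal genes, markers of the labelled mammary tissue, summed to between 1220 and 2131 CPM in PyMT *Pcbp1*–/– tumors and between 1478 and 2013 CPM in PyMT *Pcbp1*+/+ tumors. By edgeR, 0 of 8 luminal, 4 basal, 5 endothelial, 5 fibroblast and 4 pan-leukocyte genes were called, and 1, a basal gene, had an unadjusted p under 0.05.

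Within genotypes, *H2-Ab1* was correlated with the dendritic cell list (r = 0.888, p = 0.00161, adjusted p = 0.00805, rho = 0.864, p = 0.00236, exact permutation, 5 relations computed). Without the 2 tumors farthest from the list's median r was 0.860. For the macrophage list r was 0.765 (p = 0.00953, adjusted p = 0.0238, rho = 0.745, p = 0.0178, exact permutation), and 0.702 without 2 tumors. For the B cell list r was 0.423 (p = 0.217, adjusted p = 0.271, rho = 0.473, p = 0.153, exact permutation), and 0.315 without 2 tumors. For the T cell list r was 0.285 (p = 0.427, adjusted p = 0.427, rho = 0.118, p = 0.762, exact permutation), and 0.164 without 2 tumors. The part of leukocyte number in the class II values was not tested.

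Interferon-stimulated genes differed with the genotype, and their sum was correlated with *H2-Ab1*, less so without 2 of the control tumors. Of 10 such genes, edgeR called 9 lower and 0 higher in PyMT *Pcbp1*–/– tumors, against 1.66% of all genes tested that were lower. *Irf7* was the most abundant of the 10 in the controls. Their summed CPM was 123, 63.8, 96.7, 78.5, 83.0 and 133 in PyMT *Pcbp1*–/– replicates 1 to 6 and 606, 522, 816, 623 and 174 in PyMT *Pcbp1*+/+ replicates 1 to 5. PyMT *Pcbp1*+/+ replicate 5 was thus the lowest control here as in the class II chains. Within genotypes r with *H2-Ab1* was 0.687 (p = 0.0223, adjusted p = 0.0372, rho = 0.700, p = 0.0273, exact permutation), and 0.448 without PyMT *Pcbp1*+/+ replicates 3 and 5. Within the 6 PyMT *Pcbp1*–/– tumors alone r was 0.411. The part of the interferon response in the class II values was not tested.

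Of 25 other genes of the class II pathway, 24 were analysed here, 20 were tested and 0 were called by edgeR, while 3 had an unadjusted p under 0.05, a share of 15% against 18.7% of all genes tested. These 3 were *Rfxank*, a subunit of the RFX factor that binds class II promoters, with -0.52 as log2 fold change (edgeR adjusted p = 0.182), *Nfyc*, a subunit of the Y-box factor NF-Y, with 0.35 (adjusted p = 0.0755), and *Sppl2a*, the protease that clears the last invariant chain fragment, with -0.26 (adjusted p = 0.170). *Rfx5*, the DNA-binding subunit of RFX, had -0.07 (adjusted p = 0.695). *H2-Oa* and *H2-Ob*, which form the inhibitor of DM, were too low to be tested, with at most 0.357 and 1.28 CPM.

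Of 9 inputs to *Ciita*, 8 were tested and 0 were called by edgeR, 3 of them with an unadjusted p under 0.05 (against 18.7% of all genes tested). *Ifng*, the gene for interferon gamma, had at most 0.284 CPM in any tumor, near the 0.213 to 0.285 CPM of 3 counts, and was not tested. *Irf1*, an activator of *Ciita*, had -0.01 as log2 fold change (95% CI -0.32 to 0.29, edgeR adjusted p = 0.970).

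Of 9 class I genes for comparison, 2 were called lower and 0 higher, against 1.66% of all genes tested that were lower. An unadjusted edgeR p under 0.05 was found for 8 of the 9 (against 18.7% of all genes tested). All 9 log2 fold changes were negative, with a median of -0.66. The called genes were *Tap1* and *Tap2*, the peptide transporter of class I, at -1.06 and -0.68 on the log2 scale (edgeR adjusted p = 0.0325 for each). *B2m* had -1.05 (adjusted p = 0.108) and *H2-K1* -0.88 (adjusted p = 0.0969). Class II was tested against class I only through the ratios of *H2-Ab1* to *B2m* and of *Ciita* to *Nlrc5*.

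Class II promoters hold an X box, bound by RFX, and a Y box, bound by NF-Y, at a close spacing. Because the chain genes moved together, promoters from RefSeq (GRCm38.p6), 250 bases before to 50 after each RefSeq gene start, were searched for AGCAAC, its variant AGTAAC, the form GGCAAC or the form GGTAAC, followed after 15 to 35 bases by ATTGG. *H2-Aa*, *H2-Eb1*, *H2-DMb1* and *Ctss* had an entry, and *H2-Ab1*, *Ciita* and *Cd74* are named only. The 2 entries of *H2-DMa*, chr17:34122582-34122881 and chr17:34125268-34125567, lie before the gene as given above, and neither held the pattern on either strand. Whether the promoter at the gene start given above holds it was not tested. The pattern was present on the gene strand in *H2-Aa*, *H2-Eb1* and *H2-DMb1*, and in 0.432% of 32851 promoters, or 0.913% on either strand. ATTGG alone was in 37.4% on either strand. The stretches below carry the pattern, with its X and Y parts in capitals, 5′ to 3′ on the gene strand. They lie at chr17:34287857-34287915 on the minus strand for *H2-Aa*, and on the plus strand at chr17:34305765-34305822 for *H2-Eb1* and chr17:34153086-34153144 for *H2-DMb1*. The spacing was 28, 27 and 28 bases. The *H2-DMb1* stretch lies before the RefSeq start but after the start in the deposited table, given above.
H2-Aa: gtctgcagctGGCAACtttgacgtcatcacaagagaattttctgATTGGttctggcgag
H2-Eb1: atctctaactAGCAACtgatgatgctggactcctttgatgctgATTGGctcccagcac
H2-DMb1: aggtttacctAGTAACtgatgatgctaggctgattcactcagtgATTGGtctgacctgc

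*H2-Oa* and *H2-Ob*, too low to be tested, held the same pattern, as did *H2-Eb2*, while the window of *H2-DMb2* did not. That window, chr17:34144999-34145298, lies after the deposited start of *H2-DMb2*, 34143307, and the promoter at that start was not tested. The stretches of *H2-Oa* and *H2-Ob*, shown for comparison, lie on the plus strand at chr17:34092292-34092350 and chr17:34238807-34238862, with spacings of 28 and 25 bases. In *Ctss*, the search for an interferon-response pattern, GAAA followed after 2 bases by a further GAAA, which overlaps none of the X or Y parts, matched within the printed stretch, chr3:95526745-95526794 on the plus strand, and 3.44% of all promoters held it on either strand. The *Ctss* promoter held neither the X and Y pattern nor ATTGG. A match describes letters and not a site in use.
H2-Oa: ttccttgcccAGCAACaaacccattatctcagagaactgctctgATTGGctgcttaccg
H2-Ob: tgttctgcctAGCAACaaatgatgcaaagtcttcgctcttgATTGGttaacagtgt
Ctss: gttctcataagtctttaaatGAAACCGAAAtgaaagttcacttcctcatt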

How the data were processed

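RNA from 11 tumors was extracted with Trizol, made into stranded poly(A) libraries in 1 batch per the labels and sequenced as paired-end reads. The submitters' notes name FastQC, Bowtie2, Partek and GRCm38. The counting method and annotation version are not given in the sources used here. The authors deposited estimated counts per gene, and the authors' CPM are those counts scaled by their sum per tumor.

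After rounding, the estimated counts went into edgeR 4.0.16 (R 4.3.3), TMM factors, its default filter on low counts (19232 genes kept) and a quasi-likelihood test with genotype as the only term. The script was tested on simulated data. Ratios and correlations used log2(CPM + 0.5) with exact permutation over tumors. Alternatives were DESeq2 1.42.0, limma 3.58.1 and others given with their effects. A count of 3 corresponds to between 0.213 and 0.285 CPM, for counting error only. Transcript lengths came from GENCODE by Ensembl identifier. The members and lists were chosen with earlier results of these data known. Named genes were the members, their fixed comparison and marker lists, and the 10 genes most like *H2-Ab1* and *Ciita*; *Itgam* was chosen after its values were seen. Some genes of the fixed lists count in list totals and are not reported singly here.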

Additional observations from a re-analysis of the deposited data

Results flagged for a closer look

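The search covered 48 groups, made of the members, marker list sums, planned ratios and *Dexi* in each genotype. In these groups 1 value stood far from the others of its group. Chance gives about 1 in 20 groups, or 2.4 of the 48, so that 1 value is fewer than chance alone gives. The log2 ratio of *Ciita* to *Nlrc5* was 1.20 in PyMT *Pcbp1*+/+ replicate 5, and the nearest control was at -0.24. That tumor had 35.6 CPM of *Ciita*, 35.5 CPM of *Dexi* and 15.3 CPM of *Nlrc5*. Without it the difference between the genotypes in this ratio was 0.57 on the log2 scale, and without PyMT *Pcbp1*–/– replicate 2 it was 0.04, against 0.23 with all tumors.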

How the results depend on the processing

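Of 176 values of the 8 members under an alternative, 161 kept their sign and side of the threshold, 14 turned sign and 1 newly passed. With sample quality weights, limma-voom called 1 member lower, *H2-Eb1*, and gave -0.16 for *H2-DMb1*. Other members lay farther from 0 in that fit than in edgeR, without being called. It gave -0.98 for *H2-Ab1*, -0.93 for *H2-Aa*, -0.88 for *Cd74*, -0.49 for *H2-DMa*, -0.33 for *Ciita* and -0.25 for *Ctss* (log2 fold change). *Ctss* was at 0.0013 and 0.0020 with limma on log2(CPM + 1) and log2(CPM + 0.1) and at 0.0017 on log2(CPM + 0.5). With each tumor left out in turn, *H2-DMa* lay between -0.34 and 0.10, *H2-DMb1* between -0.13 and 0.19 and *Ctss* between -0.15 and 0.15 (log2 fold change), and 0 members were called. The log2 ratio of *H2-Ab1* to *Ptprc* lay between -0.62 and -0.45, with adjusted p from 0.0198 to 0.0595. The other ratios and the list correlations kept their direction and side of the threshold where tried: the ratios with pseudocounts of 0.1 and 1 and with each tumor left out, the correlations with 0.1 and with TMM-scaled CPM (added after the data were seen).

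Over all genes, edgeR called 319 lower and 117 higher, DESeq2 700 and 476, and limma-voom 1190 and 968. With limma on CPM, 196 were lower and 85 higher (pseudocount 1), or 212 and 100 (pseudocount 0.1). With each tumor left out, 144 to 389 were lower and 41 to 187 higher. With a replicate block in 10 tumors, 118 were lower and 42 higher, and no member was called. Same-numbered tumors correlated in their deviations from -0.144 to 0.293, and not every tumor correlated best with its own number, so that the numbers are no sign of pairing. The cause of these shifts was not tested.

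At 31 to 134 counts per tumor, *H2-DMa* and *H2-DMb1* had the fewest counts among the members. The edgeR intervals of the 8 members all include 0. In that fit, the differences seen in *H2-Eb1* and *H2-Ab1* could not be told from the spread between tumors. On the same tumors, limma-voom with sample quality weights called *H2-Eb1* (adjusted p = 0.0411).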
